A study of Arabidopsis thaliana with 11 samples.

Results

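Touch and calmodulin-like genes were followed across 5 sorted cell populations of the Arabidopsis thaliana leaf epidermis. The 7 genes were chosen by locus code, with earlier results of these data known, from the 33602 genes of the expression table. They were TCH2 (AT5G37770), TCH3 (AT2G41100), TCH4 (AT5G57560), CML23 (AT1G66400), CML37 (AT5G42380), CML38 (AT1G76650) and CML39 (AT1G76640). All 7 had a value in every library and passed the filter on low values, which kept 29850 genes whose linear value reached 10 (a log2 value of 3.32) in 2 or more libraries.

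Protoplasts, which are cells freed from their walls by enzymes, were sorted by fluorescence from shoots of seedlings grown for 10 days, of 5 marker lines in the Col background. Tissue of all 5 groups was digested for 2 h before sorting, so there is no undigested control. ML1Y carries ML1p::YFP-RCI2A, a YFP under the promoter of an epidermal gene, and stands for the whole epidermis (2 libraries). SSY carries SPCHp::SPCH-YFP and stands for mother cells of meristemoids and young meristemoids, the early stomatal precursors (3 libraries). MG carries MUTEp::nucGFP and stands for late meristemoids and young guard mother cells (2 libraries). FGF carries FAMAp::GFP-FAMA and stands for guard mother cells that are mature and for guard cells that are young (2 libraries). E1728G carries the enhancer trap E1728::GFP and stands for mature guard cells (2 libraries). SSY and FGF carry an added copy of a stomatal regulator as a fusion protein, ML1Y carries a YFP fused to the membrane protein RCI2A, and the labels of MG and E1728G name GFP with no fused regulator. The labels do not say whether libraries of a group came from separate plants, so p-values measure the spread between these libraries, which may be technical.

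The touch (TCH) genes were named for transcripts that rise soon after a plant is touched, sprayed, wounded or moved. Such stimuli let calcium into the cytosol, where calmodulin and calmodulin-like (CML) proteins bind it through EF-hand loops and pass the signal to their targets. TCH2 and TCH3 are themselves calmodulin-like proteins, and TCH4 encodes a xyloglucan endotransglucosylase/hydrolase (XTH), an enzyme that cuts and rejoins xyloglucan chains of the cell wall. In guard cells, calcium signals also take part in stomatal closing. Levels below are the deposited normalized values on a log2 scale, which are not divided by gene length, so they are compared between groups and not between genes.

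Some facts of the series bear on what follows. FAMA stood at 14.47 ± 0.62 (SD, n = 2) in FGF against 8.59 ± 0.42 (n = 2) in ML1Y, and MUTE at 8.75 ± 1.57 (n = 2) in MG against 4.54 ± 0.48 (n = 2). SPCH, the gene behind the SSY line, had its lowest group mean in SSY, at 5.58 ± 0.50 (n = 3). Its libraries there overlapped with those of ML1Y, and the difference did not pass (-0.56 ± 0.62, limma adjusted p = 0.649). FAMA, a gene of the late lineage, stood at 11.55 ± 0.87 (n = 3) in SSY and was higher there than in ML1Y (log2 difference 2.96 ± 0.75, limma adjusted p = 0.0317). Its means in MG (10.21) and E1728G (11.24) were below that of SSY, but neither difference passed (limma adjusted p = 0.373 and 0.869). TGG1, a myrosinase gene and guard cell marker, likewise rose in SSY against ML1Y (2.82 ± 0.49, adjusted p = 0.00372). The other guard cell markers followed were not called there, among them TGG2 (limma adjusted p = 0.204) and SLAC1 (0.943). The libraries labelled SSY thus go against the early stage of their label in FAMA and TGG1, while SPCH did not differ by the test from ML1Y. SSY is used below as the name of the marker line only. Over all genes tested, the median gap between the highest and the lowest library of a group was 1.19 log2 units for the 3 libraries of SSY, with 0.37 to 0.61 for the other groups. Read depth is unknown, because the deposited values keep no counts.

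By group mean 5 of the 7 touch genes were highest in ML1Y, the epidermal line, whose libraries also held the highest level of mesophyll and photosynthesis markers (log2 summed level 18.11 to 18.45, against 13.29 to 14.76 in the other 9 libraries). Of these 5, TCH4 and CML39 passed no test in the fit of all 11 libraries. TCH3, CML37 and CML38 fell in SSY, CML37 also fell in FGF and E1728G, and TCH3 also fell in E1728G. None of the 7 rose in any comparison. TCH2 and CML23 had no call in any comparison, and CML23 had its highest mean in MG. An F test over all 5 groups (limma, Benjamini-Hochberg adjusted) called CML37 (adjusted p = 0.012), CML38 (adjusted p = 0.0136) and TCH3 (adjusted p = 0.031), 3 of 7 members where 6.21% of all genes tested were called. TCH4 (adjusted p = 0.107), CML39 (adjusted p = 0.21), CML23 (adjusted p = 0.345) and TCH2 (adjusted p = 0.52) did not pass. Without ML1Y replicate 1, or without ML1Y replicate 2, the F test called 0 members.

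**Figure D1:**
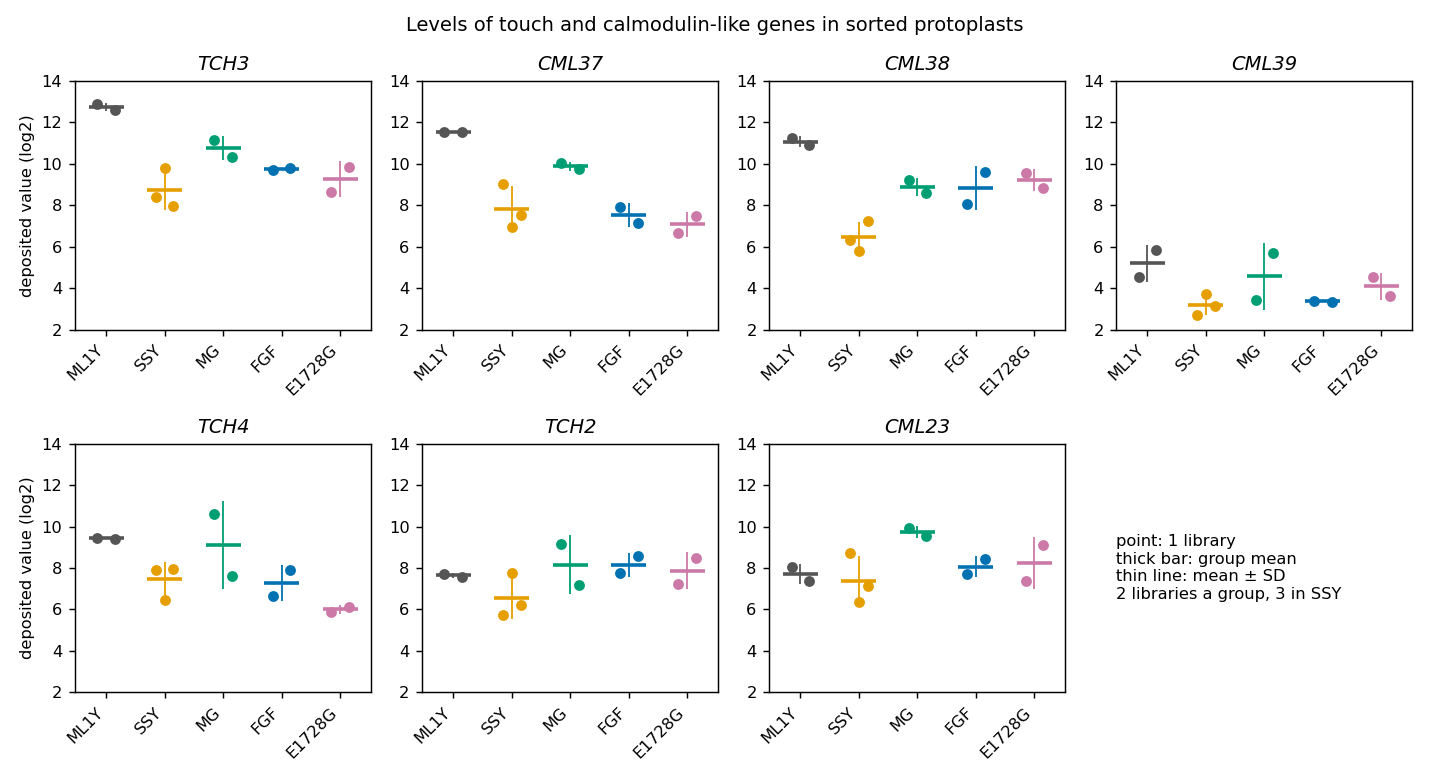
Deposited log2 value of each gene (y axis) in the 5 groups (x axis), with 1 point per library, the group mean as a thick bar and the mean ± SD as a thin line. TCH3, CML37 and CML38 are highest in both ML1Y libraries, while TCH2 and CML23 overlap between ML1Y and SSY.

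TCH3 encodes a calmodulin-related protein with more EF hands than calmodulin itself. Its values were 12.88 and 12.60 in ML1Y, 8.42, 9.81 and 7.99 in SSY, 11.16 and 10.35 in MG, 9.72 and 9.79 in FGF, and 8.64 and 9.87 in E1728G. Both ML1Y libraries were above the 9 others. The level was 16.05-fold lower in SSY than in ML1Y (log2 difference -4.00 ± 0.76, SE; limma adjusted p = 0.00672) and 11.2-fold lower in E1728G (-3.49 ± 0.84, adjusted p = 0.0403). For FGF the log2 difference was -2.99 ± 0.84 without a call (adjusted p = 0.0891), and for MG it was -1.99 ± 0.84 (adjusted p = 0.377). In the order of group means, ML1Y, MG, FGF, E1728G and SSY, no pair of neighbours passed the adjusted threshold (adjusted p = 0.377 to 0.96 for the upper pairs, 1 for FGF and E1728G, 0.777 for E1728G and SSY). The call in SSY was lost without ML1Y replicate 1 (adjusted p = 0.101) or ML1Y replicate 2 (adjusted p = 0.0942), and TCH3 in E1728G kept its call in 3 of 11 fits that left out 1 library (adjusted p up to 0.362, without E1728G replicate 1). The difference of TCH3 in FGF passed in a fit of only the groups compared (adjusted p = 0.0133), with library weights (0.00443), without a variance trend (0.0372), with quantile normalization (0.0484) and without SSY replicate 2 (0.0421).

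CML37, CML38 and CML39 form a related group of calcium sensors. CML37 is known from drought and herbivore responses, and CML38 from wounding and low oxygen. CML37 stood at 11.54 and 11.53 in ML1Y, at 9.04, 6.96 and 7.51 in SSY, at 10.03 and 9.74 in MG, at 7.93 and 7.12 in FGF, and at 6.66 and 7.48 in E1728G. The ML1Y libraries were highest and the MG libraries came next, without overlap with any other group. Compared with ML1Y, CML37 was 12.97-fold lower in SSY (log2 difference -3.70 ± 0.73; limma adjusted p = 0.00854). In FGF it was 16.04-fold lower (-4.00 ± 0.80, adjusted p = 0.0169). In E1728G it was 21.99-fold lower (-4.46 ± 0.80, adjusted p = 0.00918), and 65 of the 29850 genes tested had a more negative difference there. MG differed from ML1Y by -1.65 ± 0.80 without a call (adjusted p = 0.498), and the steps below it in the order, MG to SSY (adjusted p = 0.162), SSY to FGF (0.86) and FGF to E1728G (1), did not pass either. All 3 calls of CML37 were lost without ML1Y replicate 1 (adjusted p = 0.0967 in SSY, 0.134 in FGF, 0.0842 in E1728G) or ML1Y replicate 2 (0.113, 0.171 and 0.112). CML37 in SSY was also lost in a fit of only the groups compared (0.0582), in FGF without FGF replicate 1 (0.0681) or FGF replicate 2 (0.185), and in E1728G without E1728G replicate 1 (0.124).

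CML38 had its lowest values in SSY. The ML1Y libraries read 11.26 and 10.89, the SSY libraries 6.31, 5.80 and 7.26, the MG libraries 9.20 and 8.57, the FGF libraries 8.08 and 9.59, and the E1728G libraries 9.58 and 8.84. Every SSY library was below every other library, and both ML1Y libraries were above every other. CML38 was 24.6-fold lower in SSY than in ML1Y (log2 difference -4.62 ± 0.72; limma adjusted p = 0.00196), with 90 of 29850 genes at a more negative difference. This call held in all 11 fits without 1 library and under all 8 other settings (adjusted p up to 0.0441). The other groups lay between, with log2 differences from ML1Y of -2.19 ± 0.79 in MG (adjusted p = 0.258), -2.24 ± 0.79 in FGF (0.21) and -1.87 ± 0.79 in E1728G (0.319). With library weights the difference in FGF passed (adjusted p = 0.0258). E1728G, MG and FGF, the middle 3 of the order, overlapped in their libraries, and FGF did not differ from SSY by the test (log2 difference 2.38 ± 0.72, adjusted p = 0.107) although their libraries did not overlap.

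CML39, known for a role in seedling establishment, lies next to CML38 in the genome with no annotated gene between them. Its values were low, at 4.56 and 5.82 in ML1Y, 2.71, 3.73 and 3.14 in SSY, 3.43 and 5.70 in MG, 3.39 and 3.33 in FGF, and 4.55 and 3.61 in E1728G. The SSY and FGF libraries were all below the ML1Y libraries, and the 2 MG libraries lay far apart. No comparison passed: the log2 difference from ML1Y was -2.00 ± 0.63 in SSY (adjusted p = 0.0815), -1.83 ± 0.68 in FGF (0.247), -1.11 ± 0.68 in E1728G (0.59) and -0.63 ± 0.68 in MG (0.925). CML39 in SSY passed without MG replicate 1 (adjusted p = 0.0411) or MG replicate 2 (0.0429), and in FGF with library weights (0.0465). No neighbours in its order, ML1Y, MG, E1728G, FGF and SSY, differed by the test (adjusted p = 0.912 to 1).

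TCH2, also called CML24, and CML23 are close relatives that act together in the timing of flowering. TCH2 stood at 7.71 and 7.57 in ML1Y, 5.74, 7.74 and 6.24 in SSY, 9.17 and 7.17 in MG, 7.73 and 8.56 in FGF, and 7.22 and 8.49 in E1728G. ML1Y overlapped with SSY, MG and E1728G, and both FGF libraries were above both ML1Y libraries. Differences of TCH2 from ML1Y ran from -1.07 ± 0.78 in SSY (adjusted p = 0.475) to 0.53 ± 0.85 in MG (0.975), and no neighbours in its order (MG, FGF, E1728G, ML1Y, SSY) differed by the test (adjusted p = 0.475 to 1). TCH2 overlaps the annotated gene AT5G37760, and TCH3 overlaps AT2G41105 and the long non-coding RNA AT2G09220. No source used here gives the strand, so reads from such overlapping genes cannot be told apart.

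CML23 read 8.06 and 7.37 in ML1Y, 8.71, 6.34 and 7.13 in SSY, 9.93 and 9.53 in MG, 7.70 and 8.44 in FGF, and 7.37 and 9.12 in E1728G. Both MG libraries were above the 9 others. The log2 difference of MG was 2.01 ± 0.87 from ML1Y (adjusted p = 0.397) and 2.33 ± 0.79 from SSY (adjusted p = 0.142), so the test did not call it, except from SSY when SSY replicate 1 was left out (log2 difference 2.99, adjusted p just under the threshold). In the order MG, E1728G, FGF, ML1Y and SSY the neighbours had adjusted p = 0.654, 1, 0.973 and 0.851.

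TCH4, the wall enzyme of the set (XTH22), had its lowest values in E1728G. It stood at 9.45 and 9.40 in ML1Y, 7.93, 6.44 and 7.97 in SSY, 10.60 and 7.60 in MG, 6.66 and 7.88 in FGF, and 5.86 and 6.14 in E1728G. Both E1728G libraries were below all 9 others, and the 2 MG libraries enclosed those of ML1Y. Against ML1Y the log2 difference was -3.43 ± 0.92 in E1728G, which just missed the threshold (adjusted p = 0.0679), -2.15 ± 0.92 in FGF (0.342), -1.98 ± 0.84 in SSY (0.205) and -0.32 ± 0.92 in MG (1). TCH4 in E1728G passed with the filter at 50 (adjusted p = 0.046), in a fit of only the groups compared (0.0172), with library weights (0.0061), and without MG replicate 1 (0.0283) or MG replicate 2 (0.0313). Its neighbours in the order ML1Y, MG, SSY, FGF and E1728G had adjusted p = 1, 0.327, 0.935 and 1. MG replicate 1 and MG replicate 2 differed by 3.00 log2 units in TCH4, by 1.99 in TCH2 and by 2.27 in CML39, against a median of 0.61 over all genes.

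**Figure D2:**
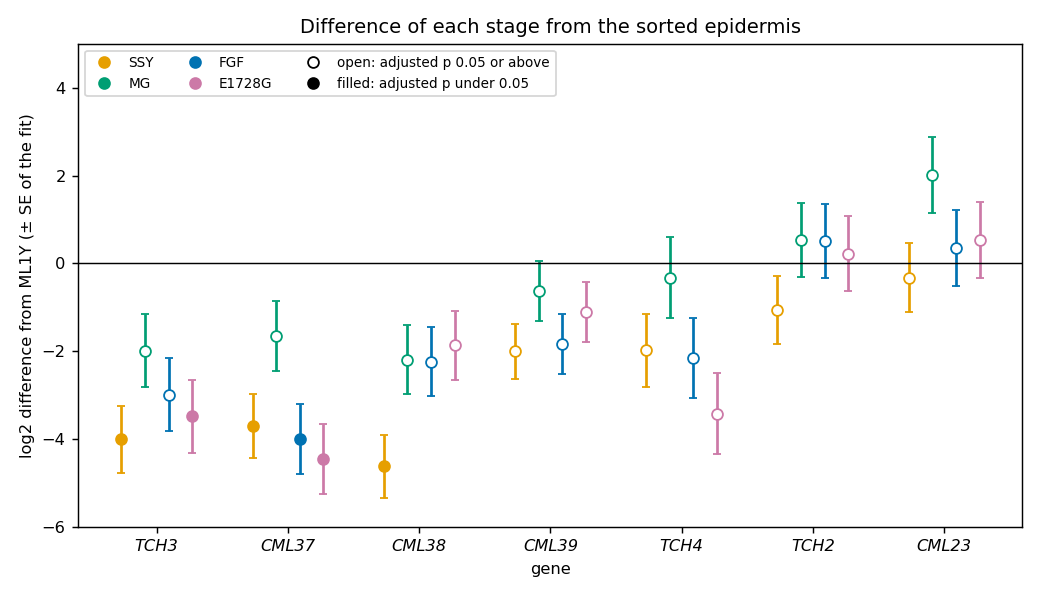
Log2 difference of each stage from ML1Y (y axis, ± SE of the fit) for the 7 genes (x axis), with filled points where the limma adjusted p was under 0.05. The filled points are TCH3, CML37 and CML38 in SSY, CML37 in FGF, and TCH3 and CML37 in E1728G, all below 0.

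Because the members were chosen with earlier results of these data known, their shares here and in the F test above describe the set without testing it. Read as a set, 3 of 7 members fell in SSY, where 4.75% of all genes tested fell against ML1Y and 5.55% were called in either direction. The libraries of SSY and ML1Y did not overlap for 5 of 7 members, as for 39.1% of all genes, with SSY lower for all 5 of them and for 21.6% of all genes. All 7 differences were negative, as were 47.6% over all genes, with a median of -2.00 beside 0.06 for all genes. In FGF 1 of 7 fell (1.89% of all genes fell and 2.11% were called in either direction), with a median of -2.15 beside 0.04, and in E1728G 2 of 7 fell (2.09% of all genes fell and 2.44% were called in either direction), with a median of -1.87 beside 0.03. In MG limma called 0 of 7 members (1.61% of all genes in either direction), while 3 of 7 had an unadjusted p under 0.05, as had 10.7% of all genes. The median in MG was -0.63 beside 0.03. In each of MG, FGF and E1728G 5 of 7 differences were negative (48%, 47.9% and 48.3% over all genes). Libraries did not overlap with ML1Y for 4 of 7 members in MG (44.1% of all genes), 6 in FGF (51.5%) and 5 in E1728G (50.8%). Of these, 3 were lower in MG (22% of all genes), 5 in FGF (25.3%) and 5 in E1728G (25.5%). CML23 was higher in MG and TCH2 in FGF. These 4 comparisons share the ML1Y libraries. The count of members called was 1 to 4 in SSY, 0 to 2 in FGF and 0 to 2 in E1728G when single libraries were left out. It was 1 in SSY without ML1Y replicate 1 or ML1Y replicate 2, and 0 in FGF and E1728G without either of them.

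The sorted populations also differed in RNA of cell type markers, both for cells other than the stomatal lineage and for guard cells. Of 12 mesophyll and photosynthesis markers, such as RBCS1A and LHCB6, 12 fell in SSY, 12 in MG, 11 in FGF and 12 in E1728G against ML1Y. The log2 of their summed level was 18.11 to 18.45 in ML1Y, 13.29 to 14.76 in SSY, 13.40 to 13.74 in MG, 13.70 to 13.76 in FGF and 13.73 to 13.91 in E1728G, and 0 of the 12 were under the filter level in all libraries. Their part in the differences of the touch genes was not tested. Fewer cells of a type and less RNA per cell cannot be told apart in such sorted pools. Of 6 vascular markers 1 fell in each of the 4 stages, the xylem protease gene XCP2, and their log2 summed level was 8.50 to 8.62 in ML1Y and 7.38 to 8.38 in the stages. Of 5 trichome markers 1, TTG2, rose in SSY and none in the other stages (summed level 8.44 to 10.27 in SSY, 7.75 to 7.76 in ML1Y, and 7.34 to 8.08 elsewhere). Of 8 guard cell markers 1 rose in SSY (TGG1), 0 in MG, 4 in FGF and 5 in E1728G. Their log2 summed level was 16.81 to 17.05 in ML1Y, 18.70 to 20.72 in SSY and 17.05 to 17.33 in MG. It was 20.07 to 20.77 in FGF and 20.54 to 20.93 in E1728G. TGG1 made up most of these sums, with a mean of 19.66 in SSY, where TGG2 came next at 13.94.

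Between stages that are consecutive by their labels no touch gene passed. From SSY to MG all 7 differences were positive, while 52.3% over all genes were negative. The 7 ran from 1.37 to 2.43 with a median of 2.01 beside -0.05 for all genes, and 5 of 7 had an unadjusted p under 0.05 (17.4% of all genes). limma called 0 of 7 there, where it called 2.12% of all genes. The largest was CML38 (2.43 ± 0.72, adjusted p = 0.0963), followed by CML23 and by CML37 (2.05 ± 0.73, adjusted p = 0.162). From MG to FGF all 7 differences were negative, from -2.36 to -0.02, as were 50.6% over all genes. Of the 7, 1 had an unadjusted p under 0.05 (CML37, -2.36 ± 0.80, adjusted p = 0.332), as had 8.35% of all genes. There limma called 0 of 7, and 0.137% of all genes. These comparisons share the MG libraries, so opposite signs on either side of MG are not independent. From FGF to E1728G limma called 0 of 7 members and 0.0101% of all genes, and 0 of 7 had an unadjusted p under 0.05 (3.54% of all genes). The difference ran from -1.27 ± 0.92 for TCH4 to 0.72 ± 0.68 for CML39. For pairs of stages that are not consecutive limma called 0 of 7 members as well. It called 1.91% of all genes for FGF against SSY, 2.13% for E1728G against SSY and 0.583% for E1728G against MG. An unadjusted p under 0.05 was found for 1 of 7 members (16.4% of all genes), 1 of 7 (16.1%) and 2 of 7 (10%), respectively. The smallest adjusted p was that of CML38 in E1728G against SSY (2.75 ± 0.72, adjusted p = 0.0632).

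Calmodulin genes stand beside several touch genes, and their values did not follow them in every case. TCH2 and CAM1 are direct neighbours, as are CML23 and CAM4, while TCH3 lies between AT2G41090, annotated as an EF-hand protein, and CAM2, each with 1 annotated gene between. AT2G41090 read 7.82 and 8.31 in ML1Y and between 3.46 and 5.70 in the 9 other libraries. It fell in all 4 stages, by 3.95 ± 0.56 on the log2 scale in SSY (limma adjusted p = 0.000988), 3.06 ± 0.61 in MG (0.0207), 3.23 ± 0.61 in FGF (0.0119) and 3.03 ± 0.61 in E1728G (0.0163). The SSY call of AT2G41090 held in all 11 fits without 1 library. Those of MG, FGF and E1728G were each lost without ML1Y replicate 1 or ML1Y replicate 2, and also without MG replicate 2, without either FGF library and without either E1728G library, respectively (adjusted p up to 0.229, 0.155 and 0.181).

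CAM2, on the other side of TCH3 and known as TCH1, stood at 8.81 and 7.92 in ML1Y, 6.40, 6.08 and 5.20 in SSY, 6.36 and 7.98 in MG, 7.88 and 9.09 in FGF, and 9.11 and 7.24 in E1728G. Its SSY libraries were below those of ML1Y, FGF and E1728G, while MG replicate 1 lay just below SSY replicate 1. The SSY mean had a log2 difference from ML1Y of -2.47 ± 0.76 that missed the threshold (adjusted p = 0.0757). In E1728G the same difference was -0.19 ± 0.83 (adjusted p = 0.982), where TCH3 fell. Across the 11 libraries TCH3 had Pearson's r = 0.90 with AT2G41090 and 0.38 with CAM2. CAM4 was not called against ML1Y either, at -0.59 ± 0.78 in SSY (adjusted p = 0.707), 2.09 ± 0.86 in MG (adjusted p = 0.361), 2.43 ± 0.86 in FGF (0.208) and 1.79 ± 0.86 in E1728G (0.404). For CAM1 the differences from ML1Y were 0.66 to 1.15 (adjusted p = 0.704 to 0.966), with an SSY replicate 1 value of 10.18 against 7.12 and 6.54 in the other SSY libraries. The 3 XTH genes beside TCH4, XTH12, XTH13 and XTH25, were low, at 2.76 to 5.83, and none passed in any of the 4 comparisons with ML1Y.

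**Figure D3:**
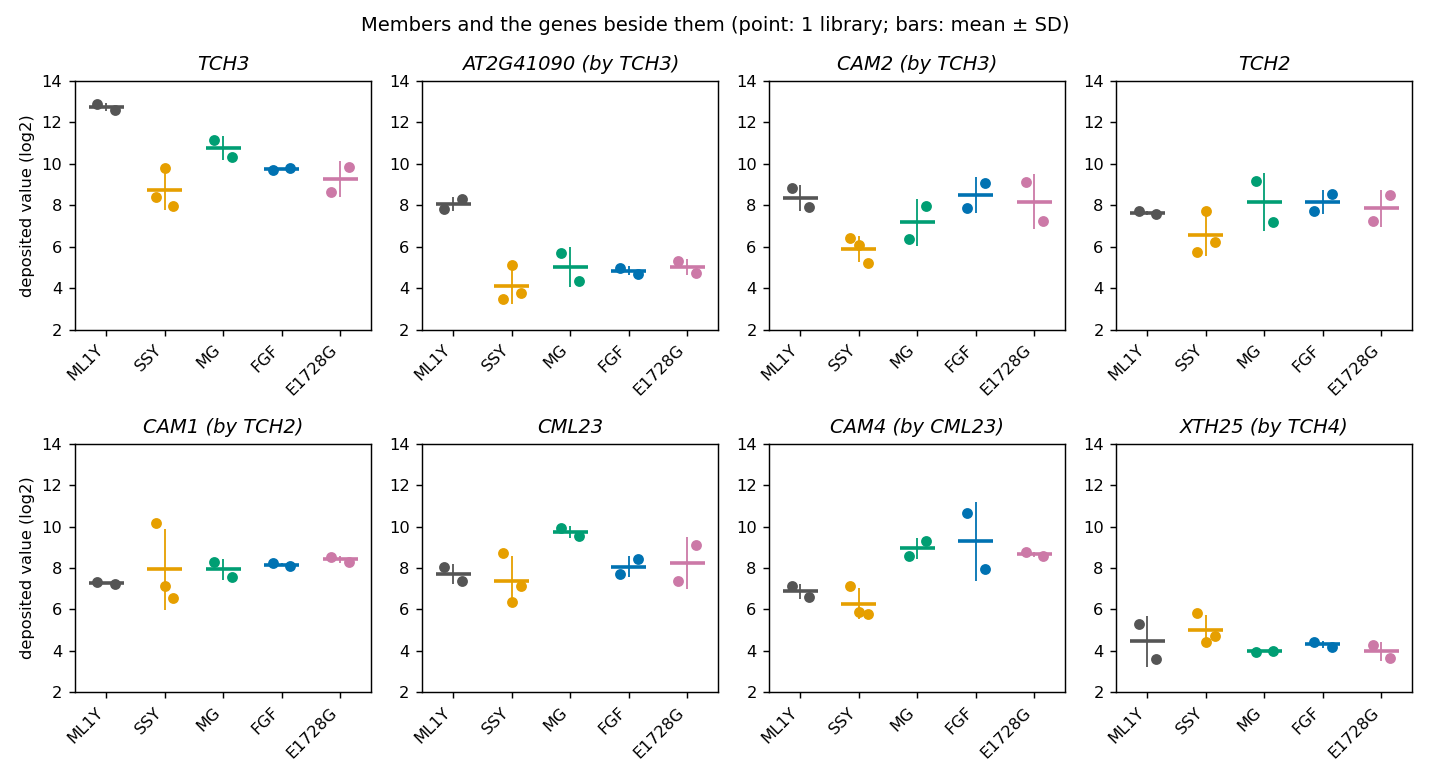
Deposited log2 value (y axis) by group (x axis) for TCH3, TCH2 and CML23 and for genes beside touch genes in the genome, with 1 point per library and bars for the mean ± SD. AT2G41090 is high in both ML1Y libraries like TCH3, while CAM2 is low in the 3 SSY libraries and in 1 MG library.

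The rest of the calcium sensor family was mostly without calls. Of the 7 calmodulin genes 0 passed in any of the 7 comparisons (limma), with 1 gene at an unadjusted p under 0.05 in each of SSY, MG and FGF against ML1Y and of MG against SSY, and 0 in the others, and their medians against ML1Y were -0.39 in SSY, 0.45 in MG, 0.12 in FGF and 0.30 in E1728G. The calmodulin genes encode nearly the same protein, and no source used here says how reads shared among them were counted. Of 44 other calmodulin-like genes 35 were tested. In SSY 3 fell and 0 rose, in MG 2 fell and 0 rose, in FGF 2 fell and 1 rose, and in E1728G 2 fell and 1 rose, with medians between -0.40 and 0.15. Of all genes tested, 5.55% were called in either direction in SSY, 1.61% in MG, 2.11% in FGF and 2.44% in E1728G. Besides AT2G41090, the EF-hand gene AT5G39670 fell in all 4 stages (6.66 and 5.91 in ML1Y, 2.21 to 4.20 in the 9 other libraries; log2 difference -3.91 ± 0.62 in FGF, adjusted p = 0.00427). AT3G01830 fell in SSY by 3.12 on the log2 scale, a gene named after its value was seen. The EF-hand gene AT4G26470 rose in the late stages: it read 5.09 and 6.32 in ML1Y, 4.93 and 4.39 in MG, 7.82 and 8.86 in FGF, and 9.17 and 8.95 in E1728G. Its log2 difference from ML1Y was 2.64 ± 0.60 in FGF (adjusted p = 0.0343) and 3.36 ± 0.60 in E1728G (0.0087), and it also rose from MG to FGF (3.68 ± 0.60, adjusted p = 0.0297). MSS3, another member of the family, was the most strongly raised of the 3 that rose from SSY to MG (3.33 ± 0.71, adjusted p = 0.0281), the others being AT2G27480 and AT5G04170, which were also named after their values were seen. These calls rested on few libraries. Without ML1Y replicate 1, AT5G39670 lost its calls in all 4 stages and AT4G26470 in both, and without ML1Y replicate 2 AT5G39670 lost those in SSY, MG and E1728G and AT4G26470 that in FGF. AT5G39670 also lost its call in MG without either MG library, in FGF without FGF replicate 2 and in E1728G without E1728G replicate 2. AT4G26470 also lost its call in FGF without either FGF library, in E1728G without E1728G replicate 1, and from MG to FGF without either ML1Y or FGF library or MG replicate 2. AT3G01830 kept its call in 7 of 11 fits without 1 library (lost without either ML1Y library, SSY replicate 2 or SSY replicate 3). MSS3 kept it in 6 (lost without either ML1Y library, SSY replicate 1, SSY replicate 2 or MG replicate 1), AT2G27480 in 1 (without MG replicate 1) and AT5G04170 in 1 (without SSY replicate 1). Under the 8 other settings MSS3 kept its call in 5, AT2G27480 in 3, AT5G04170 in 4, AT3G01830 in 6, and AT4G26470 in 5 from MG to FGF and 7 in FGF against ML1Y.

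Among the 32 XTH genes other than TCH4, 1 rose, in MG, while 3 fell in SSY, 2 in MG, 3 in FGF and 3 in E1728G. The share of all genes called in either direction was 5.55% in SSY, 1.61% in MG, 2.11% in FGF and 2.44% in E1728G. XTH18 read 9.74 and 9.44 in ML1Y and 4.24 to 6.15 in the 9 other libraries. Its log2 difference from ML1Y was -5.12 ± 0.54 in SSY (adjusted p = 0.000171), -4.09 ± 0.59 in MG (0.0041), -4.79 ± 0.59 in FGF (0.0016) and -4.22 ± 0.59 in E1728G (0.00242). For SSY, FGF and E1728G the call of XTH18 held in every fit without 1 library, while for MG it was lost without ML1Y replicate 2 or MG replicate 2. XTH4 fell in all 4 stages as well, by 2.36 to 3.00 on the log2 scale, and XTH19 in SSY, FGF and E1728G, by 2.58 to 2.60. XTH4 lost its call in SSY and E1728G without ML1Y replicate 1, in FGF without FGF replicate 2, and in MG without either ML1Y library or MG replicate 1. XTH19 lost its call in SSY without ML1Y replicate 2 (adjusted p = 0.201), and kept it in 5 of 11 such fits in FGF and 7 of 11 in E1728G, with losses without either ML1Y or E1728G library and, in FGF, without either FGF library. XTH19 kept its call under 4 of 8 other settings in FGF and 5 in E1728G. XTH16 rose in MG, with 8.53 and 8.05 there against 5.76 and 5.37 in ML1Y and 5.48, 4.66 and 4.50 in SSY (log2 difference from ML1Y 2.72 ± 0.59, adjusted p = 0.0315, lost without either ML1Y or either MG library). The medians of the 32 genes were 0.05 in SSY, -0.47 in MG, -0.43 in FGF and -0.49 in E1728G, beside 0.03 to 0.06 for all genes.

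Other genes of the touch and wound response were also followed. Of 12 rapidly induced transcription factor genes none rose, while 2 fell in SSY (4.75% of all genes fell), 0 in MG, 1 in FGF (1.89%) and 2 in E1728G (2.09%). They were the cold response factor gene CBF2, in SSY (-1.99 ± 0.52, adjusted p = 0.038), FGF (-2.39 ± 0.57, 0.0433) and E1728G (-2.41 ± 0.57, 0.0377), and ERF11, in SSY (-2.47 ± 0.63, 0.0335) and E1728G (-3.04 ± 0.69, 0.0305). WRKY40, a factor of wound and pathogen responses, and ERF6 did not pass, at -2.25 ± 0.80 in SSY (adjusted p = 0.131) and -2.71 ± 0.70 in E1728G (0.0576). The list's medians against ML1Y ran from -1.55 in SSY to -0.71 in FGF. The log2 of its summed level was 14.93 to 15.15 in ML1Y and 13.08 to 13.65 in SSY. It was 14.43 to 14.54 in MG, 14.92 to 15.88 in FGF and 14.68 to 15.24 in E1728G, so that SSY was lowest and FGF and E1728G overlapped with ML1Y. Both calls of ERF11 and all 3 of CBF2 were lost without ML1Y replicate 1 or ML1Y replicate 2. ERF11 also lost its call in SSY without SSY replicate 1 or SSY replicate 2, and in E1728G without either E1728G library. CBF2 also lost its calls without either FGF or E1728G library, in SSY without SSY replicate 1 or SSY replicate 3, and in FGF without either MG library, and so kept 3, 3 and 5 of 11 such fits. Under the 8 other settings CBF2 kept its call in 3 in SSY, 4 in FGF and 4 in E1728G, and ERF11 in 5 in SSY and 6 in E1728G, both being lost with quantile normalization and without a variance trend.

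Of 10 jasmonate and wound genes 2 fell in SSY, 1 in FGF and 1 in E1728G, and 0 in MG. Over all genes tested 4.75% fell in SSY, 1.89% in FGF and 2.09% in E1728G. The list's medians against ML1Y ran from -0.88 in SSY to -0.20 in FGF. The log2 of its summed level was 16.10 to 16.66 in ML1Y, 14.84 to 15.73 in SSY and 15.21 to 16.01 in MG. In FGF it was 16.31 to 17.33, and in E1728G, above both ML1Y libraries, 16.78 to 17.28. JAZ1 made up most of these sums, with a mean of 16.97 in E1728G and 15.91 in ML1Y. It was not called between those groups (log2 difference 1.06 ± 0.67, limma adjusted p = 0.602). Of the 10 differences of E1728G from ML1Y 7 were negative, with a median of -0.82. AOS, the allene oxide synthase of jasmonate synthesis, read 11.47 and 12.72 in ML1Y, 7.54, 7.15 and 8.79 in SSY, 10.07 and 8.72 in MG, 8.64 and 7.38 in FGF, and 7.65 in both E1728G libraries. It fell by 4.27 ± 0.77 on the log2 scale in SSY (limma adjusted p = 0.00502), 4.09 ± 0.85 in FGF (0.0206) and 4.45 ± 0.85 in E1728G (0.0118). LOX3, a lipoxygenase of the same pathway, fell in SSY (-2.93 ± 0.70, adjusted p = 0.0249). JAZ7 and LOX2 did not pass in any stage. All 3 calls of AOS were lost without ML1Y replicate 2, those in FGF and E1728G also without ML1Y replicate 1 or any single library of the stage itself. LOX3 lost its call without either ML1Y library (adjusted p = 0.325 and 0.126).

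**Figure D4:**
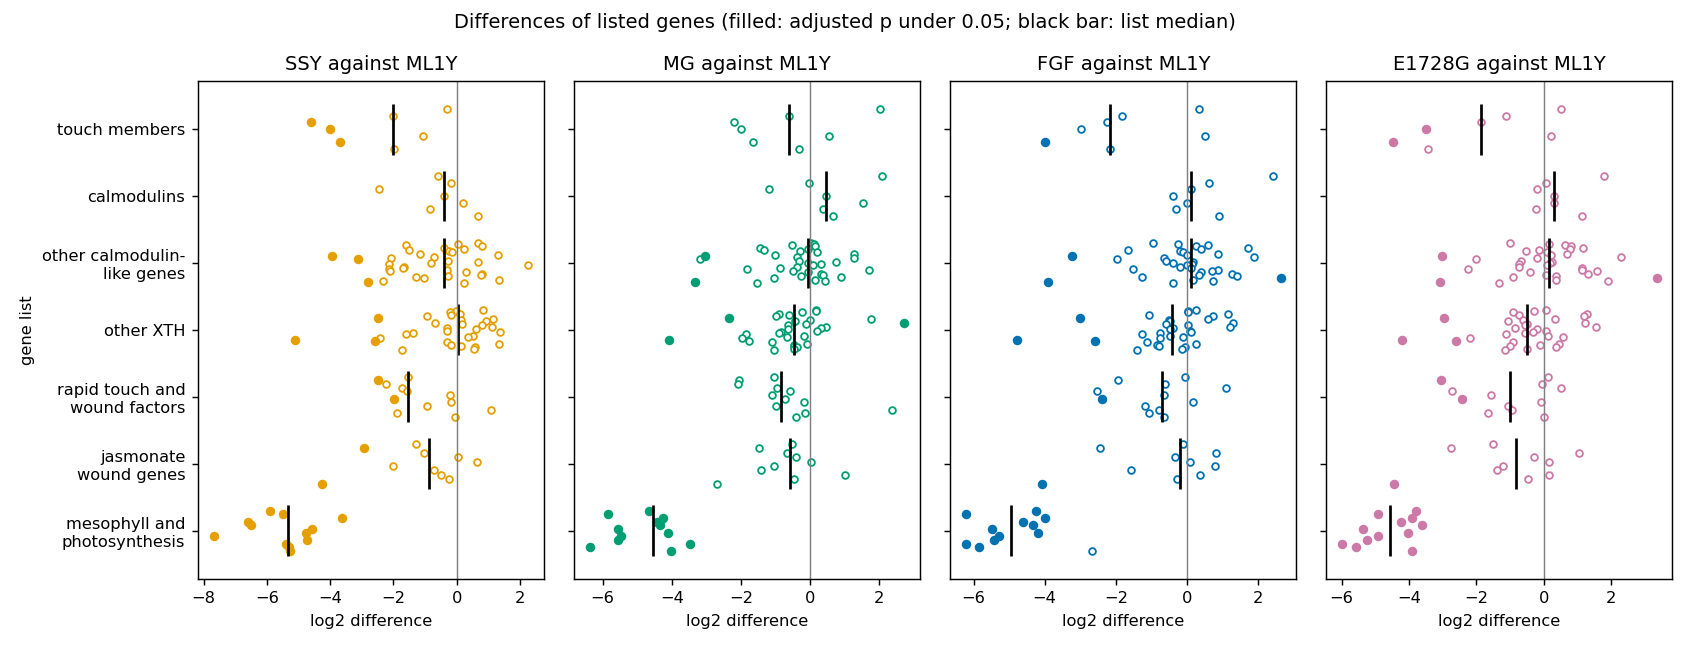
Log2 difference from ML1Y (x axis) of each tested gene in 7 gene lists (y axis), 1 panel per stage, with filled points where the limma adjusted p was under 0.05 and a black bar at the list's median. The median of the touch genes lies to the left of that of the calmodulins in all 4 panels. Single touch genes lie to the right of the calmodulin median, such as CML23 in all 4 panels. The mesophyll and photosynthesis markers lie farthest to the left in all 4 panels.

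The 7 genes did not share 1 profile. Over the 11 libraries Pearson's r between pairs of them ran from -0.02 for CML23 with CML39 to 0.82 for TCH3 with CML37, with 0.80 for TCH4 with CML37, 0.72 for TCH3 with CML38 and 0.34 for TCH2 with CML23. CML38 and CML39, which lie side by side, had r = 0.58. These values describe 11 libraries that fall into 5 groups and share their normalization. Among all tested genes with a symbol, those most like TCH3 were APG1, a plastid methyltransferase gene (r = 0.99), the auxin receptor gene AFB4 (0.98) and the signal peptide gene CLE2 (0.97). Most like CML37 were CLA1, the first enzyme of plastid isoprenoid synthesis (0.98), GPDHp (0.96) and MIPS1, of inositol synthesis (0.96). For CML38 they were ABCF5 (0.96), UCP5 (0.95) and GSA1, an enzyme of chlorophyll precursor synthesis (0.94). TCH4 was most like PRXR1 (0.94), CAF1a (0.93) and the ribosomal protein gene RPL16A (0.93), and CML39 most like the pectate lyase gene AT59 (0.93), RLP6 (0.92) and ATAB2 (0.91). TCH2 was most like the RNA-binding protein gene ATRZ-1A (0.96), CI51, a subunit of respiratory complex I (0.94), and RAC10 (0.91). CML23, highest in MG, was most like the cuticle transporter gene ABCG11 (0.92), REF4 (0.90) and BDG1, a gene of cuticle formation (0.90).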

How the data were processed

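RNA of protoplasts sorted from 5 marker lines was sequenced in 11 libraries. One table deposited by the authors holds a normalized log2 value per library for 33602 genes, 2 of them without any value. Bowtie2, DESeq2 and TAIR10 are named, per the submitters' processing notes. No source used here names the read counter, annotation, transformation or strand. One label field speaks of microarray profiles, whereas titles and library fields say RNA-seq, which was followed. Base 2 was inferred: raised back from log2, a library's values total 17236592 to 25175463. A transformation that shrinks low values would lessen differences of low genes such as CML39. Per the labels' protocols, about 10 ng of RNA from each sample went into cDNA amplified by the SPIA method.

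Values were used as deposited. All 11 libraries entered 1 limma-trend fit of group means (limma 3.58.1, R 4.3.3), with contrasts between all 10 pairs of groups, adjusted by Benjamini-Hochberg over the 29850 genes tested within each contrast (threshold 0.05, two-sided). Each gene has a single spread across groups (6 residual degrees of freedom), so errors are understated for groups that vary more. It was tested on simulated data. The 7 members, the gene lists and the tests were chosen with earlier results of these data known. Named genes are all members, the genes beside them, up to 4 genes per other list with the smallest adjusted p, and the 3 genes most correlated with each member, beside those said to be named later. List names were matched to the TAIR10.1 RefSeq annotation. That build differs from the authors' by name, so it gave names and neighbours only, the planned search of promoter and protein sequences was not made, and genes without a symbol appear by locus code. Alternatives were 2 other filters, 1 added on the linear scale, quantile normalization, only the groups compared, no variance trend, library weights, a replicate block and each library left out.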

Additional observations from a re-analysis of the deposited data

How the results depend on the processing

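For the 7 members, 7 comparisons and 19 alternatives, most differences kept their direction and their side of the threshold. The number of members called was 3 in SSY, 0 in MG, 1 in FGF and 2 in E1728G against ML1Y. Single left-out libraries gave 1 to 4, 0 to 0, 0 to 2 and 0 to 2, then 0 to 1 for MG against SSY (1 without SSY replicate 1, CML23) and 0 to 4 for the F test. The cause was not tested. A fit in which ML1Y keeps 1 library assumes that it varies like the other groups. For FGF against ML1Y the count was 2 with quantile normalization, 2 with only the groups compared, 2 without a variance trend and 4 with library weights.

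Differences with no call changed sign in 13 of 49 member results, none of them with a call on either side. With quantile normalization, CML23 in SSY against ML1Y was 0.10 and CML38 in FGF against MG 0.0145. With single libraries left out, CML23 ranged from -0.70 to 1.05 for E1728G against FGF, and against ML1Y from -0.35 to 1.41 in E1728G, -0.0189 to 0.73 in FGF and -0.98 to 0.21 in SSY. CML38 ranged from -0.38 to 1.13 for E1728G against FGF and from -0.81 to 0.71 for FGF against MG, CML39 from -1.76 to 0.51 for MG against ML1Y, TCH3 from -1.11 to 0.12 for E1728G against FGF, and TCH4 from -1.82 to 1.18 for MG against ML1Y. TCH2 ranged from -0.92 to 0.34 for E1728G against FGF, -0.41 to 0.85 for E1728G against ML1Y, -1.02 to 0.98 for FGF against MG and -0.47 to 1.53 for MG against ML1Y.

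Same-numbered libraries of different groups did not deviate together (correlation across genes -0.08 to 0.03, 0 of 20 pairs above 0.1). In groups of 2 libraries the deviations of replicates 1 and 2 mirror each other, so these pairs are not independent. The values show no shared deviation, but they cannot tell whether same-numbered libraries were prepared together. With the replicate number as a block, the members called stayed at 3 in SSY, 1 in FGF and 2 in E1728G, and the F test called 2 in place of 3, having lost TCH3. Over all genes, the calls against ML1Y numbered 1657 in SSY (296 to 2140 over the alternatives), 482 in MG (36 to 983), 629 in FGF (89 to 2430) and 728 in E1728G (94 to 2178). For MG against SSY they were 634 (2 to 875), for FGF against MG 41 (0 to 257; with quantile normalization 1, which was higher, beside 18 higher and 23 lower), and for E1728G against FGF 3 (0 to 83). Among named genes of the other lists, AT2G41090 in MG, AT5G39670 in E1728G, XTH4 in MG, LOX3 in SSY and XTH16 from SSY to MG kept their calls under 7 of 8 settings (lost with only the groups compared), and XTH16 in MG under 6. Without read counts, no counting error can be given.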

Other observations

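Other parts of the touch pathway gave few calls. Of 6 genes for calmodulin-binding transcription activators, the factors through which calmodulin reaches many stress genes, AT1G67310 read 9.57 and 8.71 in ML1Y, 6.89, 6.81 and 6.07 in SSY, and 9.93 and 9.81 in MG. It fell in SSY against ML1Y (log2 difference -2.55 ± 0.64, limma adjusted p = 0.0312) and rose from SSY to MG (3.28 ± 0.64, adjusted p = 0.0212), and the other 5 did not pass. The SSY call of AT1G67310 was lost without ML1Y replicate 1, ML1Y replicate 2 or SSY replicate 3 (adjusted p up to 0.329), and that from SSY to MG without ML1Y replicate 2 or either MG library (adjusted p up to 0.0939). Under the 8 other settings the SSY call was kept in 5, lost with quantile normalization, only the groups compared and the replicate block. The call from SSY to MG was kept in 4, lost in those 3 and with library weights (adjusted p up to 0.143). CAMTA1 had a mean of 9.86 in SSY and of 13.29 in MG, where its libraries read 11.54 and 15.05, just short of the threshold (3.44 ± 0.93, adjusted p = 0.0697). CAMTA2 did not pass in SSY against ML1Y (-1.95 ± 0.74, adjusted p = 0.153), nor did AT4G16150 from SSY to MG (2.54 ± 0.74, adjusted p = 0.0898).

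Of 8 genes for channels and receptors of mechanical stimuli, 0 passed in any of the 7 comparisons by limma, with 1 at an unadjusted p under 0.05 in MG against ML1Y and in FGF against MG and 0 in the others, the smallest adjusted p being that of MSL10 from SSY to MG (1.33 ± 0.66, adjusted p = 0.313). Of 8 heat shock genes, HSP90.1 rose in SSY (2.39 ± 0.64, adjusted p = 0.0442) and ATHSP22.0 in FGF (3.63 ± 0.88, adjusted p = 0.0483). HSP90.1 kept its call in 3 of 11 fits without 1 library, lost without any single ML1Y, MG or FGF library, SSY replicate 1 or SSY replicate 2. It was kept under 3 of 8 other settings, and lost without a filter on low values, with quantile normalization, with only the groups compared, without a variance trend and with the replicate block. ATHSP22.0 kept its call in 2 of the 11 fits, without SSY replicate 1 or SSY replicate 2, and in 7 of 8 other settings, being lost with quantile normalization. HSP17.6II and HSP18.2 did not pass in any comparison. The log2 summed level of the 8 genes was 17.73 to 18.43 in ML1Y, 19.60 to 19.73 in SSY, 19.12 to 20.10 in MG, 19.64 to 20.65 in FGF and 17.71 to 20.36 in E1728G. Their part in the results above was not tested.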
